A study of Homo sapiens with 36 samples.

Results

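The proteasome genes described here are a list of 37 genes: subunits of the proteasome core and cap, their activators and the factor POMP. The list was chosen by the fall of PSMB5 after DUSP4 knockdown seen earlier in these data, so the knockdown values are given as a description. The counts of genes past a threshold there are printed beside the share of all genes, and nothing is read from them. Of the 37 genes, 34 were measured by a probe that carries their symbol alone, of 17958 genes in all. PSMC5, PSMD7 and PSMD13 had no such probe. All 34 measured genes had a mean level above the median of all genes (means of 6.46 to 11.69 on the log2 scale, against 6.34).

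The 26S proteasome destroys proteins that carry ubiquitin chains. Its barrel, the 20S core, is built of alpha rings that gate the entry (PSMA genes) and beta rings (PSMB genes) that hold the cutting sites. PSMB5 carries the chymotrypsin-like site, which bortezomib blocks, PSMB6 the caspase-like site and PSMB7 the trypsin-like site. PSMB10 replaces PSMB7 in the immunoproteasome, and POMP guides the maturation of the core. The 19S cap holds ATPases that unfold substrates (PSMC genes) and non-ATPase subunits (PSMD genes), some of which bind ubiquitin or remove it. PSME genes encode other activators. Cells whose proteasome is inhibited are known to raise most subunit genes together through the transcription factor NFE2L1.

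The cells were the breast cancer lines MDA231, SUM159PT and BT549, with 3 arrays (A, B and C) in each of 4 groups per line, 36 arrays in all. All cells were reverse transfected with siRNA at 10 nM and harvested at 96 h. siCONTROL cells had a Dharmacon pool of non-targeting siRNA and DMSO. siDUSP4 cells had siRNA against DUSP4, a phosphatase that acts on ERK and related kinases, and DMSO. The remaining groups had control siRNA and 1 uM selumetinib (AZD6244), an inhibitor of MEK, for the last 4 h or 24 h. Whether the arrays of a group came from separate cultures is not stated, so p-values rest on the spread among these samples alone, and that spread may be technical. In bulk RNA, fewer cells of a kind and less RNA per cell cannot be told apart.

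For 24 arrays the title and the source name disagree on which of SUM159PT and BT549 was used, and the titles were followed. RB1, which BT549 cells are known to lack in function, read 6.71 to 7.01 in the siCONTROL arrays titled BT549 and 9.39 to 9.41 in those titled SUM159PT. In the siDUSP4 arrays titled BT549 it read 7.95 to 8.15, and its part in the results for that group was not tested. CDKN2A, also read for line identity, was at 9.70 to 10.07 in all arrays titled BT549 and at 3.49 to 4.58 in all other arrays. In the siDUSP4 arrays titled BT549 CDKN2A read 9.98 to 10.06. The mesenchymal markers VIM and CD44 had group means of at least 11.67, and ESR1 and PGR stayed at or below 4.49. CDH1 had group means up to 5.04, and those of ERBB2 ran from 6.93 to 8.07, above the median of all genes (6.34). EPCAM reached 8.53, PECAM1 7.37, PTPRC 5.75, LYZ 5.31 and CDH5 5.18 as their highest group means, while CD3E stayed at or below 3.74. Array upper quartiles ran from 7.48 to 8.03, and arrays correlated with their own group at a mean r of 0.970 to 0.996. The lowest upper quartiles were those of the MDA231 4 h array B (7.48), the BT549 24 h array A and the MDA231 4 h array C (7.66), against 7.95 for the MDA231 4 h array A.

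DUSP4 itself, the check of the knockdown, fell to 18.7% of siCONTROL in MDA231, 27.9% in SUM159PT and 21.1% in BT549, taking the log2 change back to a linear ratio. Its arrays did not overlap: in MDA231 the siDUSP4 arrays read 7.43 to 7.76 and the siCONTROL arrays 9.99 to 10.15.

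Promoter windows help to show what these genes share beyond their role. RefSeq windows of 250 bases before to 50 bases after the start (GRCh38.p14) were at hand for 32 of the 37 genes, and those of PSMA7, PSMB1, PSMB6, PSMB7 and PSMD4 were not used here. The motifs searched on both strands were TGACNNNGC (core of the site bound by NFE2L1 and NFE2L2), CCAAT (the NF-Y box) and CCGGAAG (an ETS core). In the sequences that follow, capitals mark a motif on either strand, written 5′ to 3′ on the gene's strand. PSMB5 has 2 annotated starts on chromosome 14 (minus strand), at chr14:23035171-23035470 and chr14:23034851-23035150, and is shown because its fall is the subject here. PSMB4 (chr1:151399323-151399622, plus strand) had the largest rise in MDA231. PSMD1 (chr2:231056617-231056916, plus strand) was higher in MDA231 and lower in BT549. PSMD14 (chr2:161308175-161308474, plus strand) fell the most with selumetinib.
PSMB5, upstream start: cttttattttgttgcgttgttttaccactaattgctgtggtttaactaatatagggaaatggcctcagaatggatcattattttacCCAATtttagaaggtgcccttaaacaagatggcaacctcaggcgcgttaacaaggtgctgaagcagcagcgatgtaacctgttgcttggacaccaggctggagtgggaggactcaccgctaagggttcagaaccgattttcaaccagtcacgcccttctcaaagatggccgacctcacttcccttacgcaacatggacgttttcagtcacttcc
PSMB5, downstream start: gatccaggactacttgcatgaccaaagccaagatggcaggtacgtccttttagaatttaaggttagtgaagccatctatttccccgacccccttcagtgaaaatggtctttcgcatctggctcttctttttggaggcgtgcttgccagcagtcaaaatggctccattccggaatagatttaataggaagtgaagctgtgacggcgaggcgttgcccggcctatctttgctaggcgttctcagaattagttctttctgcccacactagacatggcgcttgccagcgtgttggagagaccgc
PSMB4: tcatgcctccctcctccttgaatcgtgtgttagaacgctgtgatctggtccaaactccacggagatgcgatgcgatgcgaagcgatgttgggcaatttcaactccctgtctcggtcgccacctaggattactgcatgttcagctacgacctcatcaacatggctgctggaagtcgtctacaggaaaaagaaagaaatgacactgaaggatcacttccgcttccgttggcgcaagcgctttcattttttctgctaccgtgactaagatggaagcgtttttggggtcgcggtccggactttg
PSMD1: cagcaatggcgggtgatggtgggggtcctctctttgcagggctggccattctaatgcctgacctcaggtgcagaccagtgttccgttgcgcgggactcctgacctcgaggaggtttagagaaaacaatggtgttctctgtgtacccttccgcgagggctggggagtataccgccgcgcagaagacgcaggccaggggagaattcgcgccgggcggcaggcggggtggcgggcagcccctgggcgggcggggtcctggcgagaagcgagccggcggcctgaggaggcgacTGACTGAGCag
PSMD14: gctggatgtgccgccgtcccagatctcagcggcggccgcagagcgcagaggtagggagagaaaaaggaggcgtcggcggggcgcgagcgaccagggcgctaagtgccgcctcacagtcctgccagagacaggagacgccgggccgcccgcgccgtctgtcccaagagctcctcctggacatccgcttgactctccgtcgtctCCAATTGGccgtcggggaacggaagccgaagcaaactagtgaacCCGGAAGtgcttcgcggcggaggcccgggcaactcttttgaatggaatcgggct

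The PSMB5 windows hold 1 CCAAT, at position -164 from the upstream start, and neither of the other motifs. The PSMB4 window holds none of the 3 motifs. The PSMD1 window holds TGACTGAGC at position 40, and the PSMD14 window holds overlapping CCAAT boxes on opposite strands, at positions -48 and -45, and CCGGAAG at position -4. Over the 32 genes, TGACNNNGC was in a window of 10 genes (31.2%), against 16.1% of 27305 genes with a window. CCAAT was in windows of 16 genes, against 39.7% of all genes, and CCGGAAG in windows of 12 (37.5%), against 12.2% of all genes. A match is a description of the letters, and genes with more than 1 start had more than 1 window.

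PSMB5 was lower after DUSP4 knockdown in all lines. In MDA231 the siCONTROL arrays A, B and C read 9.34, 9.62 and 9.75 and the siDUSP4 arrays 8.52, 8.51 and 8.26 on the log2 scale. In SUM159PT the siCONTROL arrays read 9.65, 9.80 and 9.79 and the siDUSP4 arrays 8.10, 8.41 and 8.42. In BT549 the siCONTROL arrays read 10.34, 10.37 and 10.17 and the siDUSP4 arrays 8.44, 8.51 and 8.58. In no line did the groups overlap, and every siDUSP4 array lay below every siCONTROL array of all lines. The log2 change, siDUSP4 minus siCONTROL, was -1.14 in MDA231, -1.44 in SUM159PT and -1.78 in BT549, each with a standard error (SE) of 0.14 from limma, n = 3 against 3. PSMB5 was thus at 45.4%, 37.0% and 29.1% of its siCONTROL level. Among the 17958 genes, ordered from the most negative change, it stood at rank 75 in MDA231, 11 in SUM159PT and 18 in BT549.

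**Figure D1:**
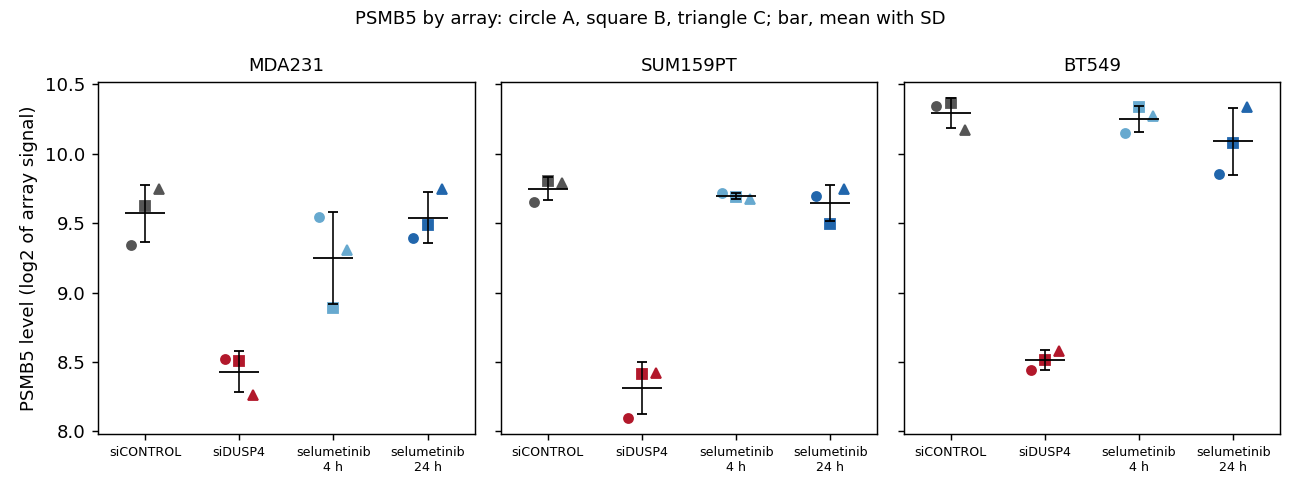
PSMB5 level (log2 of array signal) in every array by line and group; symbols are arrays A, B and C, bars the group mean with SD. The siDUSP4 arrays lie at 8.10 to 8.58, below all others, whose lowest is 8.89 (MDA231, selumetinib 4 h, array B).

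PSMB5 was the 1 gene of the 34 with a siDUSP4 change below 0 in all lines, and 11 of the 34 had a change above 0 in all lines. Since the fall of PSMB5 led to the choice of the list, its place there is a description. For the 17958 genes the matching shares are not given here, so nothing is read from either count. A gene is said to be called at an adjusted p (limma, Benjamini-Hochberg over all genes) under 0.05. The map of changes shows 1 dark row.

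**Figure D2:**
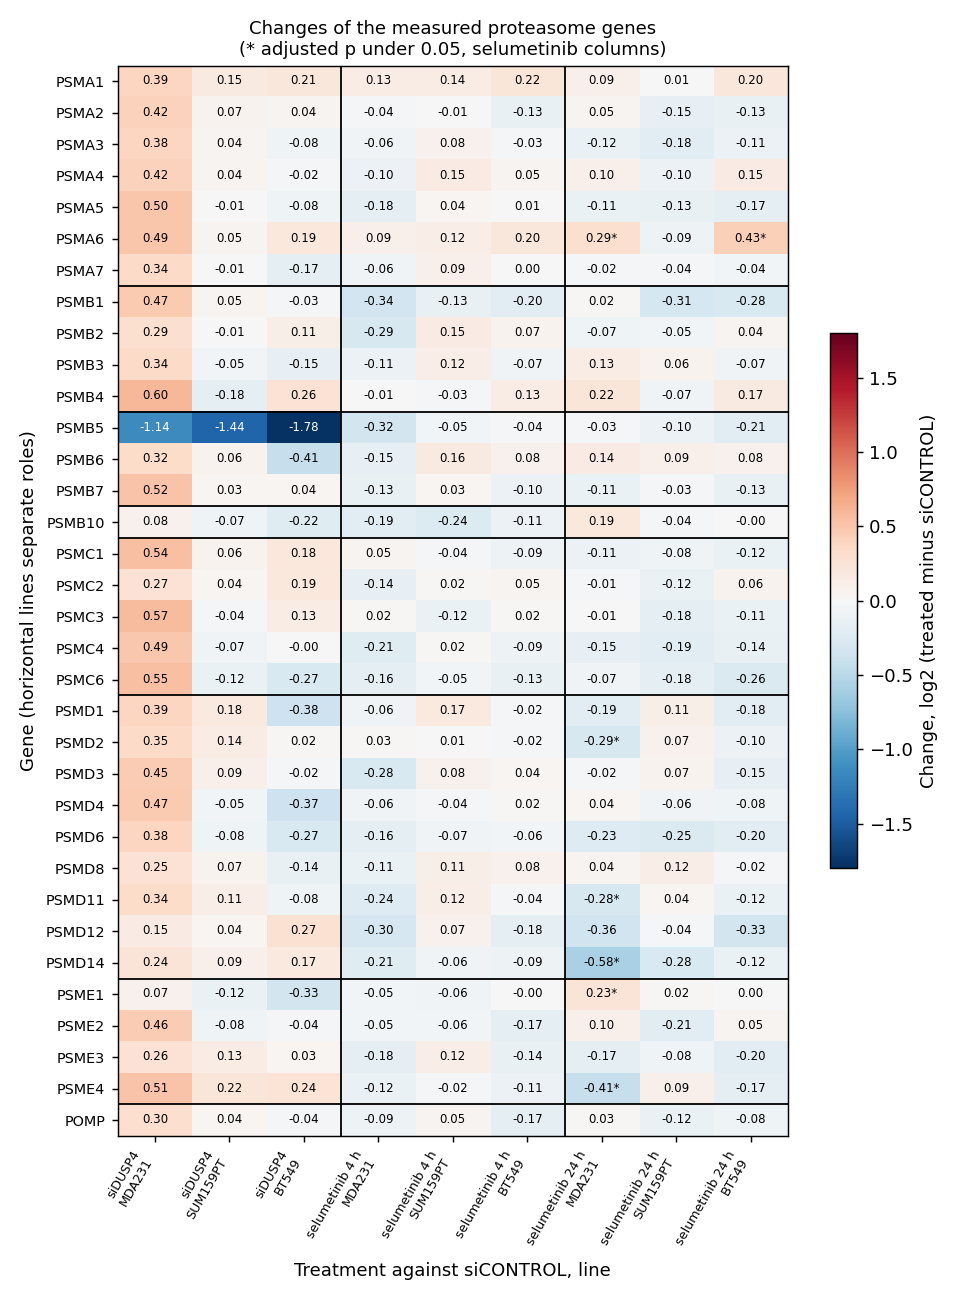
Log2 change against siCONTROL of each of the 34 measured genes (rows, ordered by role) in each treatment and line (columns); blue is lower, red is higher, and asterisks mark calls in the selumetinib columns. PSMB5 is the dark blue row after siDUSP4 (-1.14, -1.44 and -1.78), and the MDA231 siDUSP4 column is red in every other row.

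In MDA231 the other subunits were higher after DUSP4 knockdown. All 33 had a change above 0, from 0.07 (PSME1) to 0.60 (PSMB4), with a median of 0.39 against 0.01 over all genes. Of the 34 genes, 26 were called higher, where 7.86% of all genes were, and 1, PSMB5, was called lower, where 9.77% were. For 30 genes every siDUSP4 array lay above every siCONTROL array, which was so for 17.5% of all genes. With the spread taken from the 12 MDA231 arrays alone, 13 were called higher, where 4.52% of all genes were. The contrast was used to choose the genes, so these counts are a description.

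By role, all 7 genes of the alpha ring were called higher in MDA231, at 0.34 to 0.50, where 7.86% of all genes were. The counts by role, here and for the cap and activators, are a description, and nothing is read from them. Of the structural beta genes, 3 of 4 were called, and PSMB2 was not (0.29). PSMB4, a structural beta subunit, read 10.05, 10.39 and 10.30 in siCONTROL arrays A, B and C and 10.77, 10.86 and 10.91 in siDUSP4 arrays. PSMB6 went from 12.02, 12.01 and 12.10 to 12.34, 12.36 and 12.40, a change of 0.32 (SE 0.10), and PSMB7 from 10.74, 10.84 and 10.98 to 11.34, 11.43 and 11.34, a change of 0.52 (SE 0.09). The siDUSP4 arrays of PSMB4, PSMB6 and PSMB7 all lay above the siCONTROL arrays, the opposite of PSMB5 in the same ring. PSMB10 read 6.09, 6.23 and 6.35 against 6.29, 6.36 and 6.25, and its groups overlapped.

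In the cap, 4 of 5 measured ATPase genes and 6 of 9 non-ATPase genes were called higher in MDA231, where 7.86% of all genes were. PSMC3 went from 9.90, 10.18 and 10.39 to 10.72, 10.73 and 10.72, a change of 0.57 (SE 0.09). PSMC6 went from 10.18, 9.77 and 9.56 to 10.49, 10.20 and 10.45, a change of 0.55 (SE 0.13). PSMC6, PSMC1 and PSMD4 each have 2 probes, and which copy of the sequence each probe reads is not known here; the brighter was used. The dimmer probe gave 0.33 for PSMC6 and 0.57 for PSMC1 (brighter 0.54), but -0.12 for PSMD4 (brighter 0.47), so the higher level of PSMD4 rests on 1 probe. Among the activators 3 of 4 were called higher, and PSME1 (0.07) was not. POMP went from 10.24, 10.18 and 10.14 to 10.52, 10.50 and 10.44, a change of 0.30 (SE 0.09).

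In SUM159PT the other subunits stayed near their siCONTROL level. Their changes ran from -0.18 (PSMB4) to 0.22 (PSME4), with a median of 0.04 against -0.04 over all genes. No gene was called higher, where 1.05% of all genes were, and PSMB5 was the 1 called lower, where 1.78% were. PSMB6 went from 11.30, 11.23 and 11.23 to 11.34, 11.27 and 11.35, and PSMB7 from 10.55, 10.53 and 10.48 to 10.48, 10.68 and 10.50. Both sets of arrays overlapped.

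In BT549 the other 33 genes had a median siDUSP4 change of -0.02, against 0.01 over all genes. Their changes ran in both directions, from -0.41 (PSMB6) to 0.27 (a non-ATPase gene of the cap). With PSMB5 included, 14 of the 34 changes were above 0 and 20 below. Of the 34 genes 5 were called lower by limma (14.7%, PSMB5 included), where 9.22% of all genes were, and 0 higher, where 4.97% were, and nothing is read from these counts. Besides PSMB5 they were PSMB6, PSMD1, PSMD4 and PSME1. PSMB6 read 11.63, 11.69 and 11.70 in siCONTROL and 11.16, 11.28 and 11.34 in siDUSP4 arrays, a change of -0.41 (SE 0.10). PSMD1, the largest scaffold of the cap, read 9.96, 10.21 and 10.24 against 9.79, 9.73 and 9.75, a change of -0.38 (SE 0.09). The siDUSP4 arrays of PSMB6 and PSMD1 lay below the siCONTROL arrays, whereas in MDA231 they lay above.

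PSMD4, a ubiquitin receptor, changed by -0.37 in BT549 (its dimmer probe by -0.19) and PSME1, a subunit of the 11S activator, by -0.33. PSMB7, the trypsin-like subunit, read 11.69, 11.50 and 11.46 against 11.63, 11.60 and 11.54 and overlapped. After repeated quantile normalization of the arrays 8 genes were called higher and 4 lower in BT549, where 9.71% and 10.4% of all genes were, so the split between directions depends on the scaling. Across lines, 3 genes (PSMB6, PSMD1 and PSMD4, named after their values were seen) were called higher in MDA231 and lower in BT549. The share of all genes with such a pair of calls is not given here, so nothing is read from the count. The PSMB6 call in MDA231 was lost under 4 of 14 alternatives (limma adjusted p up to 0.16). For PSMD4 the dimmer probe was at -0.12 in MDA231.

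**Figure D3:**
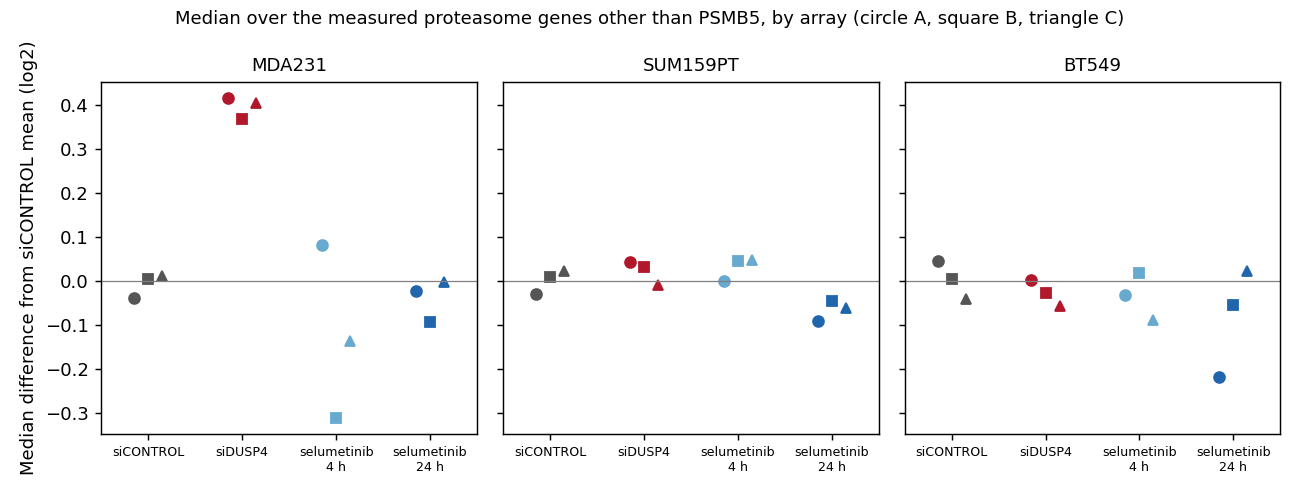
Median difference from the siCONTROL mean of the line, over the 33 measured genes other than PSMB5, for each array (log2). The 3 MDA231 siDUSP4 arrays lie at 0.37 to 0.42, those of SUM159PT at -0.01 to 0.04 and those of BT549 at -0.06 to 0.00.

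Selumetinib tests whether blocking MEK moves the same genes. It shares the siCONTROL arrays with the knockdown, so the values of both are only set side by side. DUSP4 also changed at 4 h, by -2.35 in MDA231 (limma adjusted p = 1e-11) and -1.35 in SUM159PT (adjusted p = 3.6e-06), and by -0.66 in BT549 (adjusted p = 0.062). At 24 h the changes were -1.26, -0.85 and -0.72 (adjusted p = 1e-06, 0.002 and 0.0061). PSMB5 did not pass the test in any of the 6 comparisons. At 4 h its arrays read 9.54, 8.89 and 9.30 in MDA231, 9.72, 9.69 and 9.67 in SUM159PT and 10.15, 10.34 and 10.27 in BT549. At 24 h they read 9.39, 9.49 and 9.74 in MDA231, 9.70, 9.49 and 9.74 in SUM159PT and 9.85, 10.08 and 10.34 in BT549. All these arrays lay above the siDUSP4 arrays of their line.

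The changes of PSMB5 at 4 h were -0.32 in MDA231 (limma adjusted p = 0.1), -0.05 in SUM159PT (adjusted p = 0.85) and -0.04 in BT549 (adjusted p = 0.99). At 24 h they were -0.03, -0.10 and -0.21 (limma adjusted p = 0.94, 0.81 and 0.3), each with SE 0.14. The lowest value came from MDA231 4 h array B, which also had the lowest upper quartile of all arrays. Without the MDA231 4 h array A the PSMB5 change there was -0.47 (limma adjusted p = 0.0089).

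At 4 h of selumetinib no proteasome gene passed the test by limma in any line. In MDA231 1.11% of all genes were called higher and 14.5% lower, in SUM159PT 0.473% and 3.81%, and in BT549 0.161% and 0.49%. At an unadjusted p under 0.05 there were 9 genes in MDA231, where 30.1% of all genes passed, 0 in SUM159PT, where 20.2% did, and 2 in BT549, where 7.86% did. In MDA231 29 of the 34 changes were below 0 with a median of -0.12, beside a median of -0.13 over all genes. Array A, whose median over the genes other than PSMB5 was 0.08, lay apart from B (-0.31) and C (-0.14). Without array A, 14 genes were called lower, where 33% of all genes were, PSMB6 (-0.31) and PSMB7 (-0.22) among them, and without siCONTROL array C 1 was, where 9.86% were. The part of the low upper quartiles of arrays B and C in these values was not tested.

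At 4 h, taking the lines in the order MDA231, SUM159PT, BT549, the difference was -0.15, 0.16 and 0.08 for PSMB6 and -0.13, 0.03 and -0.10 for PSMB7. It was -0.19, -0.24 and -0.11 for PSMB10 and -0.09, 0.05 and -0.17 for POMP. None of these passed the limma test, at adjusted p from 0.31 to 0.95. Whether the 4 h changes differed between lines was tested with an F test in limma, which called 0 of the 34 genes, where 1.84% of all genes were called. At an unadjusted p under 0.05 it gave 3 genes, where 18.8% of all genes passed. Without the MDA231 4 h array A it called 7, where 21.3% of all genes were called.

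At 24 h of selumetinib in MDA231, 4 of the 34 genes (11.8%) were called lower, where 10.3% of all genes were. Called higher were 2 (5.88%), where 7.36% of all genes were. These counts lie near the shares of all genes, so nothing particular to the proteasome genes is read from them. PSMD14, the enzyme of the cap that removes ubiquitin chains from substrates, went from 10.24, 10.28 and 10.32 to 9.67, 9.69 and 9.74. Its arrays did not overlap, and it fell by 0.58 on the log2 scale (SE 0.09, limma adjusted p = 1.1e-05). PSME4, which encodes the activator PA200, went from 10.13, 10.11 and 10.14 to 9.75, 9.59 and 9.80 and fell by 0.41 (SE 0.11, limma adjusted p = 0.0059). PSMD14 and PSME4 were called lower without any 1 of the 6 arrays, and adjusted p over all alternatives ran up to 0.0031 for PSMD14 and 0.049 for PSME4.

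The other calls at 24 h in MDA231 were weaker. PSMD2, a scaffold of the cap, went from 11.17, 11.31 and 11.33 to 10.88, 11.01 and 11.07, a change of -0.29 (SE 0.08, limma adjusted p = 0.01). It was not called without siCONTROL array B (-0.27, adjusted p = 0.051) or 24 h array A (-0.23, adjusted p = 0.07). PSMD11, another cap scaffold, changed by -0.28 (limma adjusted p = 0.014). PSMA6, of the alpha ring, went from 10.69, 10.67 and 10.83 to 11.08, 10.94 and 11.05, a change of 0.29 (SE 0.09, limma adjusted p = 0.023). Its adjusted p was 0.078 to 0.1 without siCONTROL array A or B or 24 h array A or C. PSME1 rose by 0.23 (limma adjusted p = 0.049), a call that was lost without any 1 of the 6 arrays (adjusted p = 0.06 to 0.19). The split of 2 higher and 4 lower became 2 and 8 after repeated quantile normalization, where 10.7% and 12% of all genes were called. It became 0 and 6 with array medians aligned, where 6.21% and 12.8% were. With the arrays of MDA231 alone 2 genes were called (4.58% of all genes higher and 6.84% lower), without siCONTROL array B 3 (5.87% and 7.73%) and without 24 h array A 3 (6.37% and 10.6%).

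In SUM159PT no gene passed at 24 h by limma, where 1.34% of all genes were called higher and 2.94% lower; at an unadjusted p under 0.05 there were 4, where 16.4% of all genes passed. With the arrays of the line alone 2 were called, where 3.4% of all genes were called higher and 7.39% lower. PSMD14 read 9.72, 9.80 and 9.86 in siCONTROL and 9.49, 9.55 and 9.52 at 24 h, without overlap, a change of -0.28 (limma adjusted p = 0.079). In BT549 PSMA6 alone was called higher, where 2.66% of all genes were, and 0 genes were called lower, where 12.4% were; at an unadjusted p under 0.05 there were 4 in either direction, where 31.6% of all genes passed. PSMA6 went from 10.02, 10.35 and 10.14 to 10.55, 10.61 and 10.65 and changed by 0.43 (SE 0.09, limma adjusted p = 0.0033). The call held without each array in turn and was lost with the arrays of the 2 groups alone (adjusted p = 0.2). Without 24 h array B 4 genes were called (3.79% of all genes higher and 16.3% lower), and without C 3 (3.51% and 17.4%), and 24 h array A had a low upper quartile.

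Between lines, the 24 h changes differed for 2 of the 34 genes by the limma F test, where 9.91% of all genes were called. For PSMA6, in the same order of lines, they were 0.29, -0.09 and 0.43 (limma adjusted p = 0.016), a call lost without SUM159PT siCONTROL array C (adjusted p = 0.057). For PSMD14 they were -0.58, -0.28 and -0.12 (limma adjusted p = 0.043), a call lost when any of 15 of the 18 arrays in these groups was left out (adjusted p up to 0.1). The core subunits PSMB6 (0.14, 0.09 and 0.08) and PSMB7 (-0.11, -0.03 and -0.13) did not pass against siCONTROL, nor did PSMB10 (0.19, -0.04 and -0.0022) or POMP (0.03, -0.12 and -0.08).

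**Figure D4:**
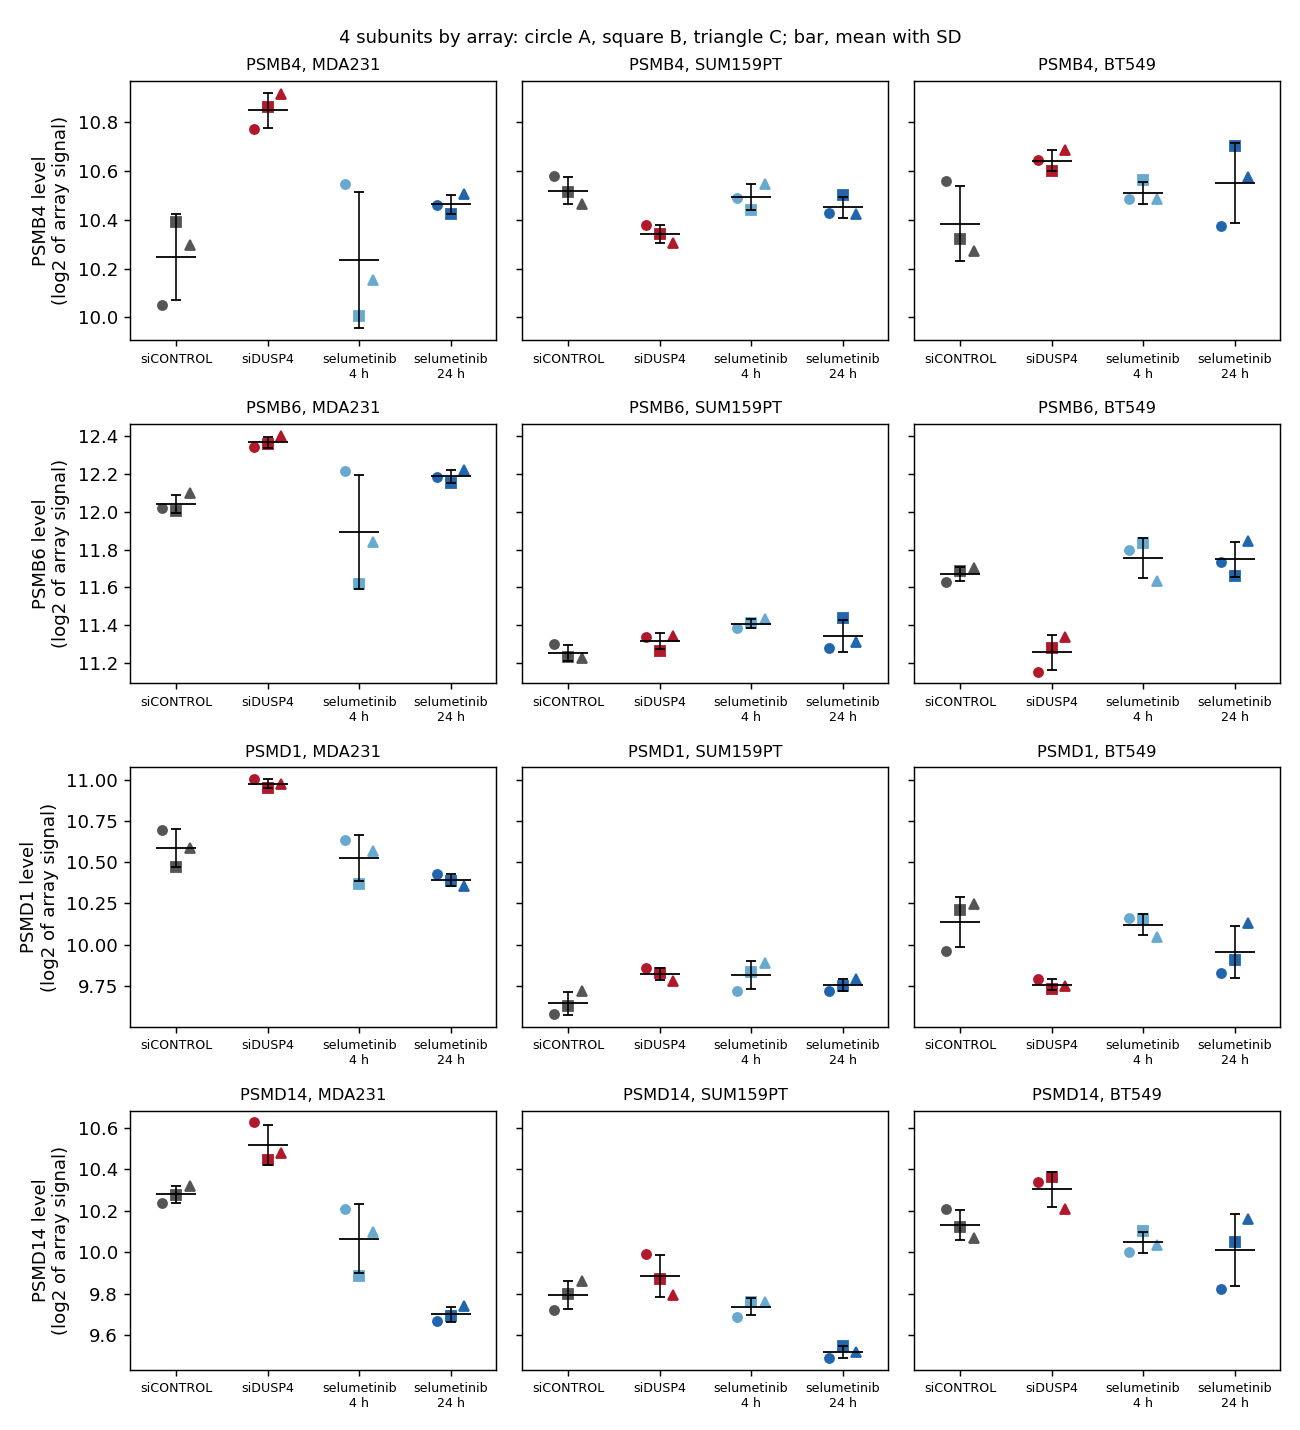
Levels (log2 of array signal) of PSMB4, PSMB6, PSMD1 and PSMD14 in every array by line and group; symbols are arrays A, B and C, bars the group mean with SD. PSMB6 and PSMD1 are above siCONTROL after siDUSP4 in MDA231 and below it in BT549, and PSMD14 is at 9.67 to 9.74 at 24 h of selumetinib in MDA231.

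Selumetinib at 24 h was also set directly against 4 h, a comparison that uses no siCONTROL array. In MDA231 3 of the 34 genes (8.82%) were called higher, where 20.4% of all genes were. Called lower were 3 (8.82%), where 4.48% of all genes were, and nothing is read from these counts. PSMB10 was higher by 0.38 (SE 0.14, limma adjusted p = 0.046), PSMB6 by 0.29 (SE 0.10, adjusted p = 0.025) and PSME1 by 0.28 (SE 0.08, adjusted p = 0.011). PSMD14 fell by 0.36 (SE 0.09, limma adjusted p = 0.0031), PSMD2 by 0.32 (SE 0.08, adjusted p = 0.0041) and PSME4 by 0.29 (SE 0.11, adjusted p = 0.047). PSMD14 and PSMD2 kept the call without any 1 of the 6 arrays. The others lost it without 1 or more of the 4 h arrays B and C or the 24 h arrays, at adjusted p up to 0.27 for PSMB6, 0.14 for PSMB10, 0.078 for PSME1 and 0.2 for PSME4. Without 4 h array A 17 genes were called, 14 higher and 3 lower, where 31.7% and 5.26% of all genes were. Without 4 h array B, 4 h array C, 24 h array A or 24 h array C 3 were called, where 10.4% to 18.9% of all genes were called higher and 3.19% to 5.26% lower. The split became 1 higher and 5 lower after repeated quantile normalization, where 17.2% and 11.4% of all genes were called, and 1 and 3 with medians aligned, where 16.7% and 5.85% were. With the arrays of the 2 groups alone 0 genes were called, where 4.2% and 0.947% were.

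In SUM159PT and BT549 no proteasome gene passed at 24 h against 4 h by limma. In SUM159PT 2.32% of all genes were called higher and 0.685% lower, and in BT549 1.91% and 5.82%; at an unadjusted p under 0.05 there were 6 genes, where 15.5% of all genes passed, and 1 gene, where 26.9% did.

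Without knockdown or selumetinib the lines differed in many of these genes. By limma, 21 of the 34 genes (61.8%) differed between MDA231 and SUM159PT, where 44.8% of all genes did. Between MDA231 and BT549 25 (73.5%) did, where 48.1% of all genes did, and between SUM159PT and BT549 24 (70.6%) did, where 50.2% did. With dim genes left out, 22 differed between MDA231 and SUM159PT, where 63.2% of all genes did. Between SUM159PT and BT549 26 did under that setting, where 70% of all genes did. The share of all genes thus depends on the filter, and nothing particular to the proteasome genes is read from these counts. The comparisons with SUM159PT or BT549 rest on the titles. PSMD2 was 1.30 higher in MDA231 than in SUM159PT (SE 0.08, limma adjusted p = 2.2e-15) and 0.79 higher than in BT549 (adjusted p = 3.8e-10). PSMD11 was lower in SUM159PT than in BT549 by 1.20, a signed difference of -1.20 (SE 0.08, limma adjusted p = 2.5e-14).

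Other genes that stood apart between lines were PSMC3 and PSMD1, higher in MDA231 than in SUM159PT by 1.05 and 0.94. PSMA1 and PSME4 were higher in MDA231 than in BT549 by 0.93 and 0.99, and PSMC4 and PSMB7 were lower in SUM159PT than in BT549, PSMB7 with a difference of -1.03 (limma adjusted p at most 1.5e-09 for these 6). For PSMB5 the siCONTROL mean was highest in BT549 at 10.29 ± 0.11 (SD, n = 3), followed by SUM159PT at 9.75 ± 0.08 and MDA231 at 9.57 ± 0.21. BT549 differed from MDA231 (-0.72, limma adjusted p = 3.1e-05) and from SUM159PT (-0.55 for SUM159PT minus BT549, adjusted p = 0.00096), while MDA231 and SUM159PT did not differ beyond their spread (-0.18, limma adjusted p = 0.33). After knockdown the means were 8.43 ± 0.15, 8.31 ± 0.19 and 8.51 ± 0.07 in MDA231, SUM159PT and BT549.

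Genes around the proteasome were taken from 4 further lists. Their counts stand against these shares of all genes called higher and lower, in the order MDA231, SUM159PT, BT549. After DUSP4 knockdown the shares were 7.86% and 9.77%, 1.05% and 1.78%, and 4.97% and 9.22%. At 4 h of selumetinib they were 1.11% and 14.5%, 0.473% and 3.81%, and 0.161% and 0.49%, and at 24 h 7.36% and 10.3%, 1.34% and 2.94%, and 2.66% and 12.4%. The lists and the contrasts were known from earlier results of these data, so the counts are a description, and nothing particular to a list is read from them.

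Among 22 measured of 24 other subunits, chaperones and regulators, 4 were called higher and 2 lower after DUSP4 knockdown in MDA231, 0 and 1 in SUM159PT and 1 and 4 in BT549. PAAF1, which binds the ATPases of the free cap, was called lower in all lines, at -1.20, -0.98 and -0.81. In MDA231 the assembly chaperone PSMG1 (0.53) and the ubiquitin receptor ADRM1 (0.53) were higher. In BT549 the chaperone PSMG2 was higher (0.68), and the deubiquitinase UCHL5 was lower (-0.62).

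With selumetinib, this list had 0 higher and 4 lower at 4 h in MDA231, 0 and 1 in SUM159PT and 0 and 0 in BT549. At 24 h the counts were 2 and 2, 0 and 0, and 1 and 3. PSMB9, the inducible subunit that replaces PSMB6, rose by 0.82 at 24 h in MDA231 (limma adjusted p = 7.7e-05) and by 0.52 in BT549 (adjusted p = 0.017), the latter call lost without BT549 siCONTROL array B or C (adjusted p = 0.087 and 0.067). ZFAND5, which stimulates the proteasome, rose by 0.81 in MDA231 (limma adjusted p = 5.7e-06). UCHL5 changed by -0.56 in MDA231 (limma adjusted p = 0.00076) and -0.46 in BT549 (adjusted p = 0.012), the latter call lost without BT549 siCONTROL array B or C or 24 h array A (adjusted p up to 0.099). ADRM1 changed by -0.47 at 4 h in MDA231 (limma adjusted p = 0.0059), a call lost without 4 h array B or C (adjusted p up to 0.093).

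The list of genes that control proteasome transcription (15 measured of 17) had 3 higher and 1 lower after DUSP4 knockdown in MDA231, 0 and 0 in SUM159PT and 1 and 2 in BT549. VCP, the segregase that frees NFE2L1 from the endoplasmic reticulum membrane, was higher by 0.35 in MDA231 and 0.27 in BT549. These calls were lost under 1 and 3 of 14 alternatives. SEL1L, of the same list, was called lower in MDA231 (-0.37) and in BT549. NFE2L2 was also called lower in BT549, a call lost under 9 of 14 alternatives. With selumetinib at 4 h the counts were 0 and 4, 0 and 3, and 0 and 1, and at 24 h 2 and 2, 0 and 1, and 0 and 2. MAFF, a small MAF partner of NFE2L1 and NFE2L2, was called lower at 4 h in all lines, at -1.73 in MDA231 (limma adjusted p = 1.4e-07), -0.78 in SUM159PT (adjusted p = 0.016) and -0.80 in BT549 (adjusted p = 0.041). The MDA231 call held without each array in turn. The SUM159PT call was lost without siCONTROL array B or C or 4 h array A or C (adjusted p up to 0.12), and the BT549 call without any 1 of the 6 arrays (adjusted p = 0.069 to 0.28).

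Of the protein damage response list (23 measured of 24), 7 were higher and 2 lower after knockdown in MDA231, 0 and 1 in SUM159PT and 2 and 6 in BT549. HMOX1, the heme oxygenase, was higher by 0.98 in MDA231 and HSPH1, a heat shock protein, by 0.66, while HSP90AA1, a chaperone, was lower in SUM159PT (-0.51) and BT549 (-0.62). With selumetinib the counts were 1 and 5, 1 and 1, and 1 and 0 at 4 h, and 6 and 3, 2 and 0, and 0 and 2 at 24 h. HMOX1 rose by 1.16 (limma adjusted p = 1.6e-10) and NQO1, a target of NFE2L2, by 0.94 (adjusted p = 7.5e-10) at 24 h in MDA231. PPP1R15A, of the same list, changed by -0.81 there (limma adjusted p = 7.3e-08). The list for ubiquitin supply and shuttles (15 measured of 19) had 2 higher and 0 lower after knockdown in MDA231, 0 and 0 in SUM159PT and 0 and 3 in BT549. With selumetinib it had 0 and 2, 0 and 0, and 0 and 0 at 4 h, and 1 and 0, 0 and 0, and 0 and 3 at 24 h. UBE3A, a ubiquitin ligase, changed by -0.47 at 24 h in BT549 (limma adjusted p = 0.0064), a call lost without BT549 siCONTROL array B or 24 h array A (adjusted p up to 0.078).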

How the data were processed

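Total RNA of 36 samples was measured on single-colour Affymetrix arrays. The authors deposited log2 values; the submitters' processing notes name RMA and Affymetrix Expression Console 1.1, with no options or genome build (not given in the sources used here). Precision is limited by 3 arrays per group. Of 33297 probes, 19181 carry 1 gene symbol in the annotation given, 2055 carry several and the rest are unnamed here, and for genes with several the brightest over all arrays was kept, which left 17958 genes with no filter on dim genes.

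The fit held a mean for each of the 12 groups over the 36 arrays (R 4.3.3; limma 3.58.1, lmFit then eBayes; 24 residual and 7.8 prior degrees of freedom), and p-values were adjusted over all genes within each comparison by the Benjamini-Hochberg method. The scripts were tested on simulated data. The members and lists, the motifs searched and the promoters printed were chosen with earlier results of these data known. The naming rule took PSMB5, PSMB6, PSMB7, PSMB10 and POMP, the largest called changes per comparison and the smallest adjusted p between lines. From the lists it took up to 3 called genes per list, line and treatment. Of the 40 list genes this gave, only part are named in the text, so those named do not stand for their lists. Other members named (such as PSMD4, PSMD11 and PSMB2) were singled out after their values were seen. Alternatives were the arrays in the fit, scaling, dim genes, probe choice, variance model, replicate block and leaving out each array. Of 54 same-letter pairs within lines, 12 correlated above 0.1 in their deviations from the group means (-0.41 to 0.45). In siCONTROL with 4 h of selumetinib in SUM159PT all 3 pairs did (0.149, 0.105 and 0.271), and no other pair of groups had all 3 above 0.1. In MDA231 the 4 h and 24 h arrays reached 0.45 for A and 0.339 for B, with 0.0864 for C. Such correlations do not establish that the letters pair samples, and the labels do not say so. With the letter as a block 0 members were called at 4 h in SUM159PT, as without it.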

Additional observations from a re-analysis of the deposited data

Results flagged for a closer look

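For 2 genes the 24 h selumetinib change differed between lines by the limma F test: PSMA6 (adjusted p = 0.016) and PSMD14 (adjusted p = 0.043). The other flagged results are siDUSP4 changes of opposite sign in 2 lines with arrays that do not overlap in either. The differences were not tested, since the knockdown contrast chose the genes. The share of all genes that meet this rule is not given here, so nothing particular to the proteasome genes is read from the list. MDA231 minus BT549, the log2 change differed by 0.51 for PSMA7, 0.49 for PSMB3, 0.74 for PSMB6, 0.82 for PSMC6, 0.77 for PSMD1, 0.85 for PSMD4 and 0.66 for PSMD6. The dimmer probe gave a smaller difference for PSMC6, 0.44 (0.33 and -0.11), and for PSMD4, 0.07 (-0.12 and -0.19). PSMB4 differed by 0.78 between MDA231 and SUM159PT and by -0.44 between SUM159PT and BT549, and PSMD1 by 0.56 between SUM159PT and BT549.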

How the results depend on the processing

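PSMB5 kept its fall after DUSP4 knockdown in all lines under every alternative run, at -1.26 to -1.05 in MDA231, -1.49 to -1.33 in SUM159PT and -1.84 to -1.75 in BT549. The naming rule gave 117 calls, not all of them printed in the text. Of these, 62 held under every alternative, and of 1636 checks of the 117 calls 256 lost the call and 0 reversed. Counts of called genes moved as follows. The share of all genes called in either direction under the same setting stands in brackets. With the arrays of the line alone, 14 were called after siDUSP4 in MDA231 (10.2%). At 24 h this setting gave 2 in MDA231 (11.4%) and 2 in SUM159PT (10.8%), and at 24 h against 4 h in MDA231 2 (14.1%). With the arrays of the 2 groups alone, the 24 h counts were 3 in MDA231 (16.2%), 2 in SUM159PT (10.3%) and 0 in BT549 (0.0835%). At 24 h against 4 h in MDA231 the count was 0 (5.15%). After repeated quantile normalization, 12 were called after siDUSP4 in BT549 (20.1%) and 2 at 4 h in BT549 (1.69%). At 24 h it gave 10 in MDA231 (22.7%), 1 in SUM159PT (7.71%) and 3 in BT549 (7.03%). At 24 h against 4 h it gave 3 in SUM159PT (6%) and 1 in BT549 (2.06%). The F test at 24 h then called 6 (14.2%). With medians aligned, 1 was called at 4 h in MDA231 (16.7%) and 1 at 24 h in SUM159PT (5.16%). With dim genes left out, 3 were called at 4 h in MDA231 (27.5%), and 1 and 2 at 24 h in SUM159PT (7.21%) and BT549 (23%). A trended robust prior gave the same counts (16.9%, 4.76% and 15.7%) and 4 by the F test at 24 h (10.2%). The mean of all probes gave 2 at 24 h in BT549 (15.2%). Leaving out each array gave 0 to 14 at 4 h in MDA231 (36.6% at 14) and 3 to 6 at 24 h (13.6% and 17% at 3). It gave 1 to 4 at 24 h in BT549 (20.1% at 4) and 3 to 17 at 24 h against 4 h in MDA231 (37% at 17). By the F test it gave 0 to 7 at 4 h (21.3% at 7) and 1 to 3 at 24 h (10.1% at 3). In SUM159PT at 4 h, where all 3 same-letter pairs correlated above 0.1, the replicate block changed no call of a gene named here. With the letter as a replicate block the F test at 24 h called 1 gene (9.49%), PSMD14 having an adjusted p of 0.068 by limma.

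Signs turned for changes that were not called. Quantile normalization gave 0.0043 for POMP after siDUSP4 in BT549, 0.065 for POMP at 4 h in MDA231, 0.0050 and 0.035 for PSMB5 at 4 h in SUM159PT and BT549, and 0.0036 for PSMB5 at 24 h in MDA231. At 24 h it gave 0.0012 for PSMB7 and 0.011 for PSMB10 in SUM159PT, and 0.21 for PSMB10 and 0.057 for POMP in BT549. Aligned medians gave -0.0020 for PSMB7 at 4 h in SUM159PT and -0.021 for POMP at 24 h in MDA231. Without 1 array, PSMB5 at 24 h in MDA231 ran from -0.14 to 0.059 and at 4 h in BT549 from -0.10 to 0.0093. PSMB7 in SUM159PT ran from -0.031 to 0.069 after siDUSP4 and from -0.014 to 0.059 at 4 h, and after siDUSP4 in BT549 from -0.0045 to 0.11. PSMB10 at 24 h ran from -0.16 to 0.11 in SUM159PT and from -0.19 to 0.23 in BT549, and POMP in BT549 from -0.14 to 0.035 at 24 h and from -0.090 to 0.044 after siDUSP4. The cause of these shifts was not tested, and 3 arrays per group limit the precision.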
